A study of Mus musculus with 9 samples.

Results

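The circadian clock genes of the mouse macrophage line RAW264.7, derived from a leukemia of monocytes and macrophages, are described here in libraries of cells given control, SFRP2 or RAB6A siRNA. The members were 10 genes chosen by name from 28137 gene identifiers in the deposited expression table. They were the activators Arntl and Clock, the repressors Per1, Per2, Per3, Cry1 and Cry2, the nuclear receptors Nr1d1 and Nr1d2, and the output gene Dbp. All 10 had a row in the table. The rule used names and no measured value, although the set was proposed with earlier results of these data known. RNA-seq had been performed on 9 libraries, 3 labelled NC siRNA (the negative control), 3 labelled SFRP2 siRNA and 3 labelled RAB6A siRNA. Per the labels, every group had been transfected with 60 nM siRNA for 6 h, returned to complete medium for 12 h and polarized with 100 ng/ml LPS for 24 h before RNA extraction, so that no library was without LPS or without siRNA. Every title also ends in 6H, which the labels do not explain and which matches the transfection time. The study's methods give another siRNA dose and also name IFN-γ, which the labels do not. No source used here gives the clock hour of harvest or names a step meant to synchronize the cells. The change to complete medium and the LPS came at set times in every group, and whether they reset the clock was not tested. Each group was sampled at 1 time point, so neither rhythm nor phase could be measured.

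The molecular clock is a feedback loop of transcription. ARNTL (also called BMAL1) and CLOCK pair and bind E-boxes, which turns on the Per and Cry genes, Nr1d1, Nr1d2 and Dbp. PER and CRY proteins then enter the nucleus and repress the ARNTL-CLOCK pair, while REV-ERBα and REV-ERBβ, encoded by Nr1d1 and Nr1d2, repress Arntl and other genes through ROR elements. DBP acts on D-boxes, for example in Per genes. In macrophages the clock is known for gating inflammatory responses, and REV-ERBs are known for repressing inflammatory and chemokine genes.

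Each library held between 32758729 and 47149258 reads, as recovered from the FPKM values (fragments scaled to exon length and library size). By group this was 41608378 to 47149258 in NC, 34743304 to 40562562 in SFRP2 and 32758729 to 37833883 in RAB6A siRNA libraries. Mitochondrial genes held 19.9 to 22.9%, 22.3 to 26.9% and 16.8 to 19.7% of the summed FPKM in these groups. NC and RAB6A siRNA libraries did not overlap in either measure, and the part of this in the clock gene values was not tested. All 7 macrophage markers looked up (Cd68, Lyz2, Adgre1, Csf1r, Cd14, Itgam and Ptprc) had a mean of at least 0.5 FPKM in every group, and their summed level was 4392 to 4841 FPKM in NC, 3889 to 4203 in SFRP2 and 3888 to 4029 in RAB6A siRNA libraries. Within this list Lyz2 stood at 850 to 898 FPKM in NC and 196 to 239 FPKM in RAB6A siRNA libraries, and Csf1r at 63.9 to 79.3 and 25.7 to 28.0 FPKM. Cd14 and Ptprc were higher without overlap in RAB6A siRNA libraries (ratio of means 1.16 and 1.13), and Adgre1, Itgam and Cd68 overlapped. The summed markers of fibroblasts, epithelial, T, B and endothelial cells and neutrophils each stayed at or under 2.90 FPKM in every library, and 3 of these markers (Cd3e, Ms4a1 and Ly6g) had no row in the table. The 5 LPS response genes summed to 1907 to 2086 FPKM in NC, 1830 to 1912 in SFRP2 and 1832 to 2016 in RAB6A siRNA libraries. Within this list Tnf and Il6 were lower (ratio of RAB6A to NC means 0.627 and 0.519) and Ptgs2 and Il1b higher (1.61 and 1.16), each without overlap, while Nos2 overlapped. The part of these differences in the clock gene values was not tested. Of the siRNA targets, Rab6a was at 24.3, 27.3 and 25.5 FPKM in NC and 21.2, 20.7 and 20.4 FPKM in RAB6A siRNA libraries, a small and non-overlapping difference (log2 fold change -0.31, SE 0.060, limma adjusted p = 0.00240). Of all genes tested between RAB6A and NC siRNA, 74.1% had a limma adjusted p under 0.05 and 77.4% did not overlap. Their median absolute log2 fold change was 0.63, larger than that of Rab6a, so the Rab6a difference alone does not verify the label. Sfrp2 was covered by 2 to 4 reads in every library, so the label of the SFRP2 siRNA libraries could not be checked against its target. The labels do not say whether replicates were separate cultures, and the p-values measure only the spread between these libraries. The titles number the SFRP2 siRNA libraries from siRNA-1 to siRNA-3, and the study's supplement uses the same names for different siRNA sequences. If each library received another siRNA, the SDs and intervals of that group also hold differences between siRNAs.

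In NC siRNA libraries the clock genes spanned a wide range of levels. FPKM is scaled to the length of all annotated exons of a gene, whether or not the cells use them, so levels between genes compare only roughly. Per1 led with 15.3 ± 1.31 FPKM (SD, n = 3), followed by Nr1d1 with 9.89 ± 1.10 FPKM. Clock, Cry1 and Arntl came next, at 6.92 ± 0.074, 6.79 ± 0.36 and 6.41 ± 0.29 FPKM, and neighbours in that order had overlapping libraries. Nr1d2 (1.68 ± 0.083 FPKM) and Cry2 (1.41 ± 0.26 FPKM) overlapped too. Dbp stood at 0.441 ± 0.13 FPKM, above Per2 (0.256 ± 0.048) and Per3 (0.190 ± 0.033), whose libraries overlapped. The last 3 rested on few reads. Across the 9 libraries Per2 had 29 to 84 reads, Per3 57 to 141 and Dbp 40 to 146, against 913 or more for Nr1d1 and 3189 or more for Per1. Under RAB6A siRNA the order after Per1 and Nr1d1 was Arntl, Clock, Nr1d2 and Cry1, and each of these overlapped with its neighbour in that order.

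**Figure D1:**
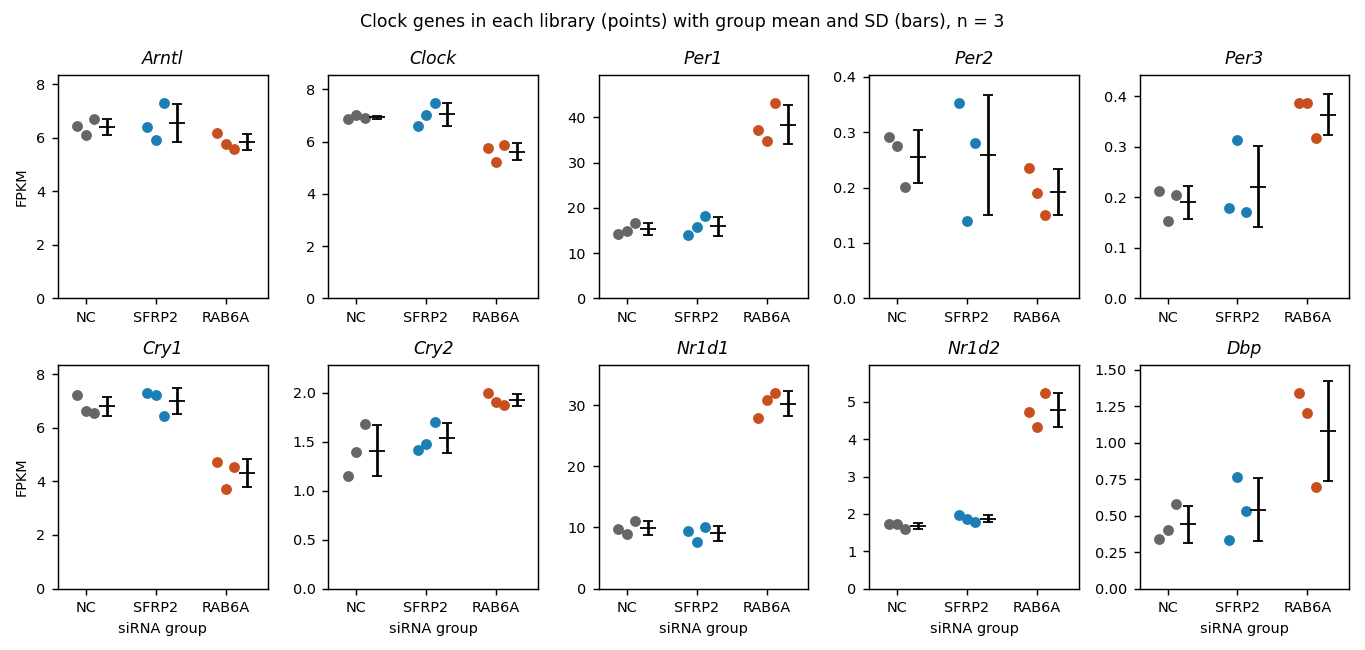
FPKM (linear axis from 0, different in each panel) of the 10 clock genes in the NC, SFRP2 and RAB6A siRNA groups; points are libraries, bars the group mean and SD, n = 3. The RAB6A points of Per1, Nr1d1, Nr1d2, Cry2 and, barely, Per3 sit above all other points, and those of Cry1 and Clock below. The SFRP2 points overlap the NC points except for Nr1d2.

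To show what the promoters of these genes hold, the RefSeq windows (GRCm38.p6) from 250 bases before to 50 bases after the transcript start were searched on both strands for the E-box CACGTG, the E-box-like word CACGTT, the D-box words TTATGTAA and TTACGTAA, the ROR element core TAGGTCA and the cAMP response element TGACGTCA. A window was given for 9 of the 10 genes. Arntl and Per1 had 2 windows each and Clock had 3. The stretches that held a match are printed 5′ to 3′ on the strand of the gene, 30 bases each, with the matched letters in capitals. The words are those of elements through which the loop is known to act, but whether these matches work as such was not tested.
Per1, E-box, chr11:69098771-69098800, + strand: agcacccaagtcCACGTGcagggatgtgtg
Cry1, E-box-like (reverse strand) and E-box, chr10:85185107-85185136, - strand: agaAACGTGaggtgccggtggtCACGTGgg
Cry2, E-box-like (reverse strand), chr2:92434218-92434247, - strand: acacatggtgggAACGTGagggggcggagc
Nr1d1, E-box-like (reverse strand), chr11:98775388-98775417, - strand: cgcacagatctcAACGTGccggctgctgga
Per3, D-box, chr4:151044852-151044881, - strand: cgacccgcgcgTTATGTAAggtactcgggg
Per3, D-box, chr4:151044805-151044834, - strand: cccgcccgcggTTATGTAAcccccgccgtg
Arntl, ROR element core, chr7:113207529-113207558, + strand: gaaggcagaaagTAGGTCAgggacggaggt
The first Per1 window lay inside the longer Per1 gene of GENCODE M21. The Per1 E-box began 166 bases before the transcript start of the first window, the Cry1 E-box 60 bases before and the E-box-like word of Nr1d1 28 bases before. The Arntl match lay inside the transcript, at its base 31 in the second window. These letters were not in the windows of Clock, Nr1d2 and Dbp, and none of the members' windows held TGACGTCA. Of all 32851 promoter windows, 7.15% held the E-box, 4.68% the E-box-like word, 1.06% a D-box word, 2.61% the ROR element core and 1.79% the cAMP response element. Under RAB6A siRNA, described next, Per1, Nr1d1 and Cry2 with a match rose, as did Nr1d2 and Dbp without one. Cry1, which had 2 matches, fell, and so did Clock without one. Per3 and Arntl, which had matches, did not pass the test. Elements outside these windows were not searched for, and a link between matches and changes was not tested.

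The comparison of RAB6A siRNA with NC siRNA asked how the RAB6A siRNA libraries differed from the control. Both REV-ERB genes and Per1 rose 2.50- to 3.05-fold, Dbp rose from a low level, Cry2 rose slightly, Cry1 and Clock fell, and Arntl did not pass the test. RNA was measured in bulk, so that a change in the share of cells with a transcript and a change in RNA per cell cannot be told apart. Of the 10 clock genes, 8 passed the filter of a mean of 0.5 FPKM over the 6 libraries, 5 of them rose and 2 fell at an adjusted p under 0.05. These counts are read against a background in which 74.1% of the 12712 genes tested were called, 37.6% higher and 36.5% lower, so that being called was the common state of a gene in this comparison. In 7 of the 8 the groups did not overlap, as in 77.4% of all genes tested. These counts include Dbp, which passed the filter only through the RAB6A group. At a log2 fold change beyond 1, Nr1d1, Nr1d2 and Per1 were DEGs, all higher, as was Dbp with that reservation, and over all genes 17.3% were higher and 12.8% lower at this threshold. Without a filter the median log2 fold change was 0.56 over all 10 members and 0.055 over all genes. Many of the unfiltered genes are low, and the pseudocount shrinks their changes. Among the genes past the filter the median absolute log2 fold change was 0.63. The RAB6A libraries form 1 group of the labels, and a difference in their handling cannot be told apart from the siRNA.

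Nr1d1 (ENSMUSG00000020889, chr11:98767932-98775333, - strand, GRCm38) encodes REV-ERBα, a heme-binding receptor that represses transcription. It was at 9.69, 8.90 and 11.1 FPKM in NC siRNA libraries and at 28.0, 30.9 and 32.1 FPKM in RAB6A siRNA libraries. All RAB6A libraries lay far above all NC libraries. The log2 fold change was 1.61 (SE 0.093, limma adjusted p = 5.46e-06), and 9.32% of all genes tested had a higher one. Nr1d2 (ENSMUSG00000021775, chr14:18204054-18239127, - strand), which encodes REV-ERBβ, had 1.73, 1.72 and 1.58 FPKM in NC and 4.73, 4.34 and 5.25 FPKM in RAB6A siRNA libraries, again without overlap. Its log2 fold change was 1.45 (SE 0.097, limma adjusted p = 9.94e-06). The shares within the pair were close: Nr1d1 made up 85.4% ± 1.91 of the summed FPKM of both genes in NC and 86.4% ± 1.14 in RAB6A siRNA libraries (SD, n = 3, exact two-sided permutation p = 0.4). With 3 against 3 libraries this test cannot give a p under 0.1, so it does not show that the shares were unchanged. The summed level of the pair was 11.6 ± 1.02 FPKM and 35.1 ± 2.32 FPKM. Exons of Nr1d1 share 263 of 3077 bases (8.55%) with Thra on the opposite strand, and the sources do not say whether counting used strand. Thra, a thyroid hormone receptor gene, was at 3.78 to 4.59 FPKM in NC and 9.54 to 11.3 FPKM in RAB6A siRNA libraries, and its part in the Nr1d1 value was not tested.

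Per1 (ENSMUSG00000020893, chr11:69095217-69109960, + strand), a PER repressor that also responds acutely to outside signals, was the most abundant member. It was measured at 14.2, 14.9 and 16.7 FPKM in NC and at 37.1, 34.8 and 43.3 FPKM in RAB6A siRNA libraries. The groups did not overlap. The log2 fold change was 1.32 (SE 0.098, limma adjusted p = 1.53e-05). Per2 (ENSMUSG00000055866, chr1:91415982-91459324, - strand), the paralog most tied to rhythm in tissues, was at 0.291, 0.275 and 0.201 FPKM in NC and 0.235, 0.190 and 0.151 FPKM in RAB6A siRNA libraries. These groups overlapped. In a fit without the filter its log2 fold change was -0.29 (95% interval -0.90 to 0.33, limma adjusted p = 0.427), and at 29 to 76 reads the interval still held a fall as large as that of Cry1. Per3 (ENSMUSG00000028957, chr4:151003652-151044665, - strand) was at 0.213, 0.152 and 0.206 FPKM in NC and 0.387, 0.388 and 0.318 FPKM in RAB6A siRNA libraries, and these groups did not overlap. Its log2 fold change without the filter was 0.68 (SE 0.24, limma adjusted p = 0.0672), not past the threshold. It did pass with 4 of the alternative settings, with an adjusted p of 0.00264 when voom was run on the recovered reads and 0.0141 with a pseudocount of 1. Per1 made up 97.1% ± 0.53 of the summed FPKM of the Per genes in NC and 98.5% ± 0.33 in RAB6A siRNA libraries.

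The cryptochromes, the other arm of the repressor complex, moved in opposite directions. Cry1 (ENSMUSG00000020038, chr10:85131700-85185064, - strand) was at 7.21, 6.61 and 6.56 FPKM in NC and 4.70, 3.73 and 4.53 FPKM in RAB6A siRNA libraries. All RAB6A libraries were below all NC libraries, with a log2 fold change of -0.65 (SE 0.10, limma adjusted p = 6.84e-04). Cry2 (ENSMUSG00000068742, chr2:92403646-92434043, - strand) was at 1.15, 1.40 and 1.68 FPKM in NC and 2.00, 1.91 and 1.88 FPKM in RAB6A siRNA libraries. The groups did not overlap, but the NC libraries were spread widely. The log2 fold change of Cry2 was 0.44 (SE 0.15, limma adjusted p = 0.0264). This call was lost without NC replicate 1 (limma adjusted p = 0.0743), NC replicate 2 (0.0631), RAB6A replicate 1 (0.0724) or RAB6A replicate 2 (0.0577), and with quantile normalization (0.250). Exons of Cry2 share 295 of 6320 bases (4.67%) with D930015M05Rik on the opposite strand. D930015M05Rik was at 0.178 to 0.303 FPKM in NC and 0.231 to 0.622 FPKM in RAB6A siRNA libraries, and its part in the Cry2 value was not tested. As a share of both cryptochrome transcripts, Cry1 was at 86.2%, 82.5% and 79.6% in NC libraries, at 83.8%, 83.0% and 79.1% in SFRP2 siRNA libraries and at 70.1%, 66.2% and 70.7% in RAB6A siRNA libraries. The RAB6A libraries were lower than all others, and the exact two-sided permutation p against NC was 0.1, the smallest that 3 against 3 libraries can give.

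The activators differed little between the groups. Clock (ENSMUSG00000029238, chr5:76209868-76304792, - strand), a histone acetyltransferase and partner of ARNTL, was at 6.86, 7.01 and 6.91 FPKM in NC and 5.75, 5.24 and 5.86 FPKM in RAB6A siRNA libraries. It had the smallest relative spread of the members in NC libraries, and the groups did not overlap. Its log2 fold change was -0.30 (SE 0.068, limma adjusted p = 0.00486), and 73.8% of all genes tested had a larger change in either direction. Arntl (ENSMUSG00000055116, chr7:113207465-113314126, + strand) was at 6.42, 6.11 and 6.69 FPKM in NC and 6.18, 5.75 and 5.58 FPKM in RAB6A siRNA libraries. These overlapped, with a log2 fold change of -0.13 (95% interval -0.30 to 0.034, limma adjusted p = 0.127). Exons of Arntl share 33 of 7523 bases (0.439%) with Gm45355 on the opposite strand, and the part of Gm45355 in the Arntl value was not tested. Arntl is a known target of repression by Nr1d1 and Nr1d2, both of which rose in the same libraries.

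Dbp (ENSMUSG00000059824, chr7:45705088-45710203, + strand), the output gene of the PAR bZIP family and a direct target of ARNTL and CLOCK, was at 0.337, 0.404 and 0.582 FPKM (42, 57 and 74 reads) in NC and 1.34, 1.20 and 0.694 FPKM (146, 136 and 68 reads) in RAB6A siRNA libraries. RAB6A replicate 3 lay closer to the NC libraries than to the other RAB6A libraries, yet the groups did not overlap. The log2 fold change was 1.10 (SE 0.30, limma adjusted p = 0.0111). Since its mean in NC was under 0.5 FPKM, the call of Dbp is no support for the set. It was lost with quantile normalization (limma adjusted p = 0.126), and the log2 fold change fell below 1 without NC replicate 1 (0.96) or RAB6A replicate 1 (0.93) and was 0.52 with a pseudocount of 1. Exons of Dbp share 539 of 2993 bases (18%) with Sphk2 on the opposite strand. Sphk2, a sphingosine kinase gene, was at 18.2 to 20.8 FPKM in NC and 11.3 to 12.9 FPKM in RAB6A siRNA libraries. The part of Sphk2 in the Dbp value was not tested.

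**Figure D2:**
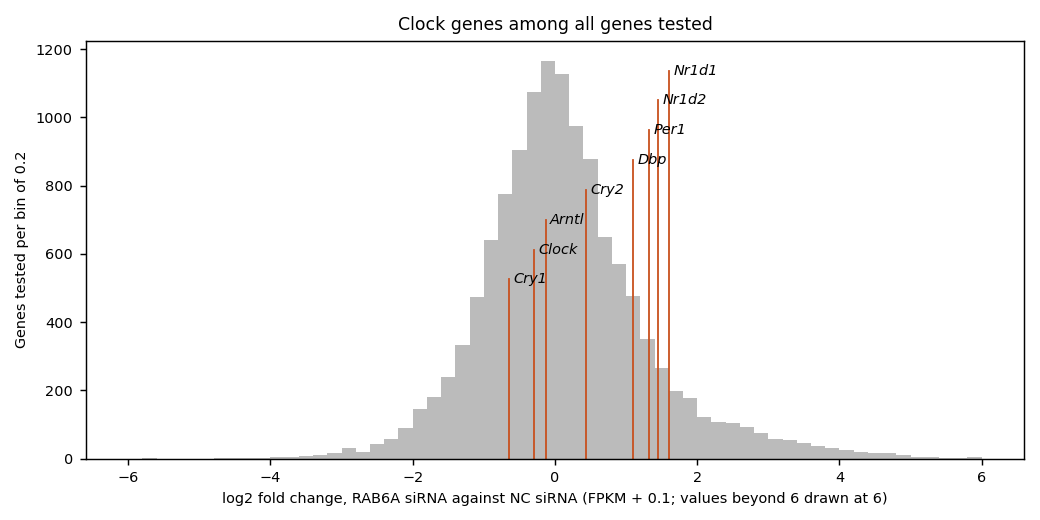
Histogram of limma log2 fold changes (x axis, RAB6A against NC siRNA) of the 12712 genes tested, with the number of genes per bin on the y axis, and lines at the 8 clock genes that passed the filter (line heights only separate the names). Nr1d1, Nr1d2, Per1 and Dbp lie in the upper flank at 1.10 to 1.61, and Cry1, Clock, Arntl and Cry2 lie in the central bulk.

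For SFRP2 siRNA against NC siRNA, the comparison the study was designed around, no clock gene passed the test. Of the 10 members 7 passed the filter and 0 were called by limma, as were 0% of the 12017 genes tested, where the smallest adjusted p was 0.140. At an unadjusted p under 0.05 there were also 0 members, against 18.5% of all genes tested. No member was called when voom was run on the recovered reads, where 41 of all genes were, and 1 of all genes was called by limma without NC replicate 1. The study reports DEGs for SFRP2 siRNA in RAW264.7 cells given LPS and IFN-γ, found with DESeq2, which was not run here. The log2 fold changes of this comparison followed GC content across genes (Spearman's rho -0.48 over 11903 genes, which are not independent replicates), and no member was called with GC content and length corrected for either. The groups did not overlap for 1 member, Nr1d2, and for 24.7% of all genes tested. Nr1d2 was at 1.98, 1.86 and 1.79 FPKM in SFRP2 siRNA libraries, just above the 1.58 to 1.73 FPKM of NC (log2 fold change 0.15, 95% interval -0.073 to 0.38, limma adjusted p = 0.415). Nr1d1 was at 9.46, 7.63 and 10.1 FPKM, overlapping the NC libraries, with a log2 fold change of -0.13 (95% interval -0.42 to 0.16, limma adjusted p = 0.580).

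The intervals say how large a change could have been missed. For Per1, at 14.0, 15.8 and 18.1 FPKM in SFRP2 siRNA libraries, the log2 fold change was 0.057 (95% interval -0.19 to 0.30). Clock (0.022, interval -0.12 to 0.17), Cry1 (0.040, interval -0.13 to 0.21) and Arntl (0.024, interval -0.18 to 0.23) were bounded most tightly. Cry2, at 1.42, 1.48 and 1.71 FPKM, had a log2 fold change of 0.13 (interval -0.25 to 0.50). The intervals of Per1, Nr1d1 and Nr1d2 did not reach the log2 fold changes of these genes under RAB6A siRNA. Dbp, Per2 and Per3 were below the filter here, and their intervals reached from -0.60 to 1.03, from -0.81 to 0.75 and from -0.54 to 0.79. The interval of Dbp thus included a log2 fold change of 1. Dbp was at 0.329, 0.765 and 0.529 FPKM and Per2 at 0.354, 0.141 and 0.280 FPKM, the widest relative spreads among the members in this group.

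RAB6A siRNA against SFRP2 siRNA uses the same RAB6A libraries as above, so that it does not repeat the first comparison independently. Here 7 of 8 members past the filter were called, 5 higher and 2 lower, beside 73.4% of the 12764 genes tested (37.6% higher, 35.8% lower). The log2 fold changes were 1.74 for Nr1d1 (SE 0.11), 1.30 for Nr1d2 (SE 0.097), 1.26 for Per1 (SE 0.12), -0.69 for Cry1 (SE 0.11) and -0.32 for Clock (SE 0.078). Cry2 (0.32, limma adjusted p = 0.0370) and Dbp (0.89, limma adjusted p = 0.0482) were near the threshold. Both lost the call with 11 of the alternative settings each, among them the settings that left out SFRP2 replicate 1, RAB6A replicate 1 or RAB6A replicate 2, in which the adjusted p of Dbp was 0.130 to 0.148 and that of Cry2 0.0761 to 0.115. Without SFRP2 replicate 2 (0.0980) or RAB6A replicate 3 (0.0639) Cry2 alone lost it, and without SFRP2 replicate 3 (0.0891) Dbp alone did. Arntl was not called (-0.16, limma adjusted p = 0.165). The groups of 6 members did not overlap, against 77% of all genes tested.

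**Figure D3:**
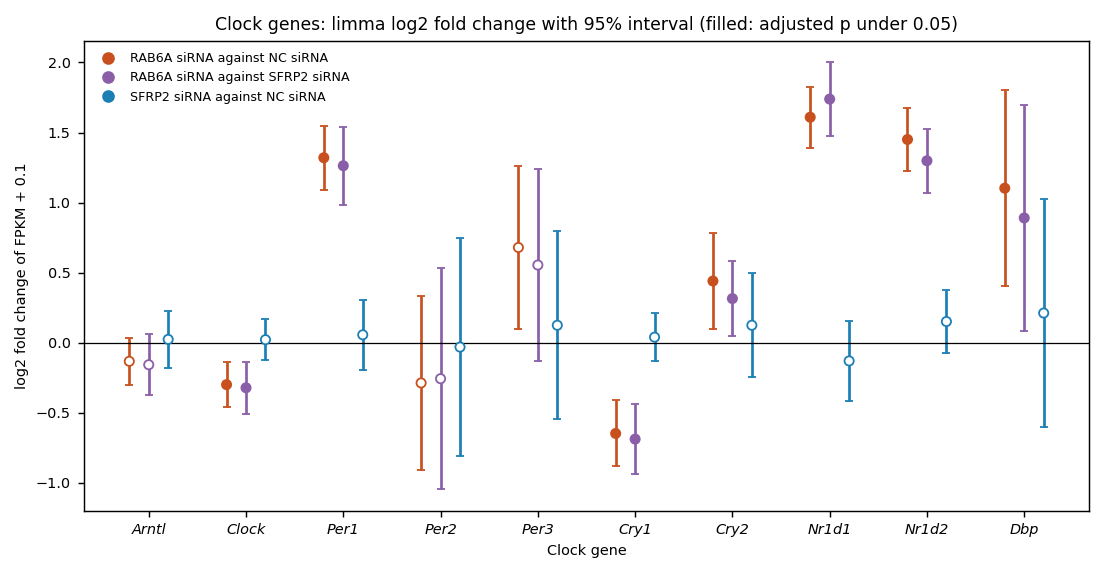
Log2 fold change of FPKM + 0.1 (y axis) of the 10 clock genes in the 3 comparisons; points are limma estimates, lines 95% intervals, filled points an adjusted p under 0.05 (Per2, Per3 and, for SFRP2 against NC, Dbp come from the fit without a filter). Nr1d1, Nr1d2 and Per1 are above 1 in both comparisons with RAB6A siRNA, and every interval of SFRP2 against NC includes 0.

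Further genes of the clock were taken from lists fixed by name, 20 genes in 6 lists. Of these, 14 passed the filter for RAB6A against NC siRNA, and 6 rose, 4 fell and 4 did not pass the test, beside 74.1% of all genes tested that were called. These counts include Usp2, which passed the filter only through the NC group. The paralogs of the activators (Npas2 and Arntl2), the ROR receptors Rora and Rorb, which activate through the elements that REV-ERBs repress, and Hlf and Fbxl21 were each under 0.1 FPKM in every library. In the PAR bZIP list both measured genes rose. Tef, a paralog of Dbp, was at 0.779 to 0.871 FPKM in NC and 2.62 to 3.29 FPKM in RAB6A siRNA libraries (log2 fold change 1.78, SE 0.13, limma adjusted p = 1.33e-05), and Nfil3, which represses through D-boxes, was at 5.31 to 6.88 and 12.3 to 13.4 FPKM (log2 fold change 1.00, SE 0.11). Among the repressors, Bhlhe41 (DEC2), which competes for E-boxes, was at 1.50 to 1.66 FPKM in NC and 5.40 to 5.77 FPKM in RAB6A siRNA libraries (log2 fold change 1.77, SE 0.080), and its paralog Bhlhe40 rose by less (0.46, SE 0.092). Timeless, which works mainly at the replication fork in mammals, fell (-0.65, SE 0.076), and Ciart, a repressor of ARNTL-CLOCK, had a log2 fold change of -0.0027 (95% interval -0.58 to 0.58).

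Of the 5 kinases and ubiquitin ligases of PER and CRY described here that passed the filter, 2 rose and none fell, beside 37.6% and 36.5% of all genes tested. Csnk1e, which phosphorylates PER, rose by a log2 fold change of 0.51 (SE 0.072) and Gsk3b by 0.38 (SE 0.067). Csnk1d (0.067), Btrc (0.26) and Fbxw11 (-0.025) did not pass the test. Btrc did pass, as higher, with voom (adjusted p = 0.00604), in limma without a trend (0.0113) and in a limma fit of all 9 libraries (0.0418), and Csnk1d passed, as higher, in limma after quantile normalization (adjusted p = 0.0176) or a correction for GC and length (0.0157). All 3 output genes fell, where 36.5% of all genes tested did. Usp2 passed the filter only through the NC group, as its mean in RAB6A siRNA libraries was 0.364 FPKM. Wee1, a cell cycle kinase gene with E-boxes, was at 2.15 to 2.46 FPKM in NC and 0.598 to 0.912 FPKM in RAB6A siRNA libraries (log2 fold change -1.52, SE 0.16), Usp2, a deubiquitinase gene, at 0.908 to 1.13 and 0.291 to 0.425 FPKM (-1.28, SE 0.22) and Nampt, of NAD synthesis, at 57.4 to 63.6 and 30.9 to 33.9 FPKM (-0.92, SE 0.065). Among the members and output genes known as targets of ARNTL and CLOCK, Nr1d1, Nr1d2, Per1, Cry2 and Dbp were called higher. Cry1, Wee1, Usp2 and Nampt were called lower, and Per2 and Per3 were not called. Over all genes tested, 37.6% were called higher and 36.5% lower. Tef, Bhlhe40 and Bhlhe41, called higher, and Ciart, not called, were left out of this tally. Dbp and Usp2 each passed the filter only through the group in which they were higher.

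Of 6 genes known as repressed by REV-ERB in macrophages, 4 fell and 2 rose under RAB6A siRNA. Nlrp3, the inflammasome sensor, was at 64.4 to 67.4 FPKM in NC and 7.51 to 9.19 FPKM in RAB6A siRNA libraries (log2 fold change -3.02, SE 0.086, limma adjusted p = 7.27e-07). Ccl2, a monocyte chemokine, was at 1978 to 2276 and 595 to 703 FPKM (-1.69, SE 0.098), Il6 at 87.0 to 106 and 47.2 to 54.8 FPKM (-0.94, SE 0.094) and Cx3cr1, a chemokine receptor, at 20.1 to 22.0 and 10.8 to 15.5 FPKM (-0.75, SE 0.13). Mmp9, a matrix protease, rose (1.11, SE 0.21) from 0.414 to 0.698 FPKM to 1.14 to 1.34 FPKM, and Il1b rose slightly (0.21, SE 0.068, limma adjusted p = 0.0234). The call for Il1b was lost without NC replicate 1 (limma adjusted p = 0.0775), NC replicate 2 (0.0729), RAB6A replicate 1 (0.0711) or RAB6A replicate 2 (0.0568). With 74.1% of all genes called, these counts do not set the list apart. In SFRP2 against NC siRNA none of the 14 further clock genes or these 6 genes was called by limma. Voom was run on 18 of these 20, all but Csnk1d and Csnk1e, whose reads were not recovered, and called 0. Bhlhe40 (-0.23) and Btrc (-0.36) had an unadjusted limma p under 0.05, as did 18.5% of all genes tested, so these 2 do not stand out.

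**Figure D4:**
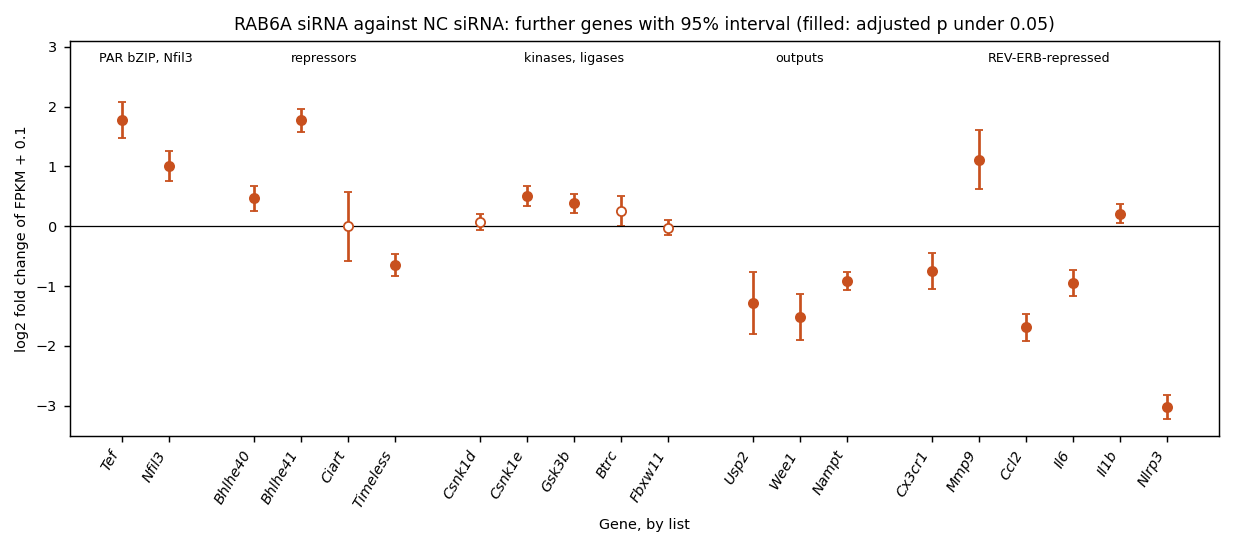
Log2 fold change of FPKM + 0.1 (y axis), RAB6A against NC siRNA, of the further clock and output genes and the REV-ERB-repressed genes past the filter; points are limma estimates, lines 95% intervals, filled points an adjusted p under 0.05. Tef, Bhlhe41, Mmp9 and, barely, Nfil3 lie above 1, and Nlrp3, Ccl2, Wee1 and Usp2 below -1. Usp2 passed the filter only through the NC group.

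For each member with a mean of at least 0.5 FPKM over the 9 libraries, the gene with the most similar profile was found among 12379 genes, by the root-mean-square difference of centred log2 values over the 9 libraries. For Nr1d1 this was Vsir, an immune checkpoint gene (difference 0.11, beside a root-mean-square of 0.80 for Nr1d1 itself), for Nr1d2 Polk, a DNA polymerase gene (0.052 beside 0.66), and for Per1 Mapk1ip1 (0.090 beside 0.62). For Cry1 it was 4931406P16Rik (0.049 beside 0.33), for Clock Cltb, a clathrin light chain gene (0.038 beside 0.16), for Cry2 Zfp7 (0.094 beside 0.23), for Arntl Tnrc6c (0.060 beside 0.11) and for Dbp Gm26642 (0.19 beside 0.60). No member was the nearest gene of another member.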

How the data were processed

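RNA-seq of RAW264.7 cells (9 libraries, 3 per group) was used as deposited by the authors, as FPKM per Ensembl gene. HISAT2, featureCounts and Subread are named in the submitters' processing notes. Versions, genome build and annotation are not given in the sources used here. Of 28137 identifiers, 27533 were named from GENCODE M21 and 604 were not. Low FPKM values times exon length were whole multiples of 1 read within 0.03 in all 9 libraries for 27083 genes (98.4% of those named), which gave the depth and reads of single genes. For differential expression, a pseudocount of 0.1 was added to FPKM, values were put on the log2 scale, and moderated linear models were fitted (limma 3.58.1, R 4.3.3, eBayes with an intensity trend) over genes with a mean of at least 0.5 FPKM in the 6 libraries compared, with Benjamini-Hochberg adjustment over all genes tested. Fold changes on this scale understate the change of low genes. DEGs had an adjusted p under 0.05 and a log2 fold change beyond 1. Genes below the filter were fitted without it. The fit was checked on simulated data. Exact tests were two-sided permutations over libraries. Groups came from the labels. The deposited file has no columns of the authors' own comparisons. Named genes were the 10 members, the siRNA targets, the lists and the nearest profile of each member, while Thra, Sphk2, D930015M05Rik and Gm45355 were added for their overlap with members. The members and lists were chosen with earlier results of these data known. Python 3.11.15 was used for levels, promoters and figures. Alternatives were other pseudocounts, filters, scalings, a replicate block, a fit of all 9 libraries, a GC and length correction, leaving out each library and, added after seeing the data, voom on the recovered reads. A few genes of these lists are not reported here.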

Additional observations from a re-analysis of the deposited data

How the results depend on the processing

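Each result was recomputed under 17 alternative settings where it could be. In RAB6A against NC siRNA the number of clock genes called was 5 to 7 (main value 7) and 6 to 7 when a library was left out, and Nr1d1, Nr1d2, Per1, Cry1 and Clock kept their direction and call under all 17. In RAB6A against SFRP2 siRNA it was 4 with the GC and length correction, where Clock, Cry2 and Dbp lost the call, and 5 to 7 otherwise (5 to 6 with a library left out). In SFRP2 against NC siRNA it was 0 throughout. Some log2 fold changes that had not passed the test changed sign. With the GC and length correction these were Arntl in RAB6A against NC (0.049) and against SFRP2 siRNA (0.036), Fbxw11 in RAB6A against NC siRNA (0.20, limma adjusted p = 0.0176, so called), and Clock (-0.12) and Per2 (0.013) in SFRP2 against NC siRNA. With quantile normalization these were Btrc (-0.020) and Fbxw11 (0.093) in RAB6A against NC siRNA. With a library left out, the range in RAB6A against NC siRNA was -0.21 to 0.17 for Ciart and -0.052 to 0.0072 for Fbxw11. In SFRP2 against NC siRNA it was -0.058 to 0.092 for Arntl, -0.023 to 0.067 for Clock, -0.038 to 0.15 for Per1, -0.23 to 0.23 for Per2, -0.070 to 0.23 for Per3, -0.0023 to 0.25 for Cry2 and -0.032 to 0.47 for Dbp. The causes were not tested. The replicate numbers did not pair the libraries: same-numbered libraries of different groups had a mean correlation of -0.010 in their deviations, others 0.0051. With a replicate block 7, 0 and 5 clock genes were called in the 3 comparisons in the order RAB6A against NC, SFRP2 against NC and RAB6A against SFRP2 siRNA. No scaling moved the median of all genes by over 0.1. Dbp, Per2 and Per3 were not tested with the filter at 1 FPKM, which they did not pass. Depth limited Per2, Per3 and Dbp, which had 29 to 146 reads per library.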
